A study of Mus musculus with 35 samples.

Results

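The 40 mouse genes described here code for the extracellular layer of Wnt signalling: 19 Wnt ligands, the 10 Frizzled receptors (Fzd1 to Fzd10), the R-spondin receptors Lgr4, Lgr5 and Lgr6, 4 secreted frizzled-related proteins (Sfrp1, Sfrp2, Sfrp4 and Sfrp5) and the Dickkopf proteins Dkk1 to Dkk4. They are all protein-coding genes whose name in a set of 33 chromatin immunoprecipitation (ChIP-seq) peak lists starts with Wnt, Fzd, Sfrp, Dkk or Lgr followed by a digit. They make up 40 of the 20305 protein-coding gene names in those lists.

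The lists come from cultured mouse pre-B cell progenitors that adhere to stroma, taken at passages 3 to 8 in both groups. WT cells derive from wild-type mice. IKDN cells derive from mice that carry a dominant-negative form of Ikaros, a zinc finger transcription factor of lymphoid cells, together with a Cre recombinase driven by the CD2 promoter, which is active in lymphocytes. The labels give neither the age of the mice nor the number of cultures behind a library. Each genotype and target has 1 library, 16 WT and 17 IKDN lists in all, and the 2 input libraries have no list. No difference between the genotypes could therefore be set against the spread between cultures, and no test was possible.

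Wnt ligands are lipid-modified secreted proteins that bind Frizzled receptors together with the co-receptors Lrp5 and Lrp6, which leads to the stabilisation of beta-catenin and to transcription with TCF/LEF factors, or to the planar polarity and calcium branches. Lgr receptors bind R-spondins and so keep Frizzled proteins at the cell surface. Sfrp proteins bind Wnt ligands outside the cell, and Dkk1, Dkk2 and Dkk4 bind Lrp5 and Lrp6. In bone marrow, Wnt signals act on lymphoid progenitors and on the stromal cells that support them.

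The measure was the length of DNA covered by the peaks of a target that the deposited lists name to a gene, which is the gene with the nearest transcription start site. A gene was called higher in IKDN when its IKDN length was longer than its WT length by 1000 bp or more and reached 1.5 times that length, and lower in the mirrored case. These calls are thresholds. In a bulk culture a longer length does not tell more cells with a mark apart from more of the mark per cell. Because a name follows the nearest start site, the calls were also made from the length over the annotated gene and 10 kb on each side, whatever name the peaks carried.

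The 250 bases before the start site are shown for 5 members at which a factor peak lay over the start region or at which a mark changed there. They are RefSeq sequences of the GRCm38.p6 assembly, the build of the mm10 coordinates in the lists, written 5′ to 3′ on the strand of the gene. Capitals mark matches, on either strand, to 6 short motifs: GGAATG for TEAD factors, TAATTA for LIM homeodomain factors such as LHX2, CTTTGA for TCF/LEF, TGGGAA for Ikaros, CCCNNGGG for EBF1 and CAGCTG for E box proteins.
Lgr4, chr2:109917397-109917646, plus strand: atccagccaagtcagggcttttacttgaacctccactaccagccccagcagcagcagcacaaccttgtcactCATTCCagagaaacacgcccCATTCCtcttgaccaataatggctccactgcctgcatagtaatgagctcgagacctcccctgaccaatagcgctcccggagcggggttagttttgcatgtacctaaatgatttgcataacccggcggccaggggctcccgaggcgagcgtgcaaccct
Lgr6, chr1:135105277-135105526, minus strand: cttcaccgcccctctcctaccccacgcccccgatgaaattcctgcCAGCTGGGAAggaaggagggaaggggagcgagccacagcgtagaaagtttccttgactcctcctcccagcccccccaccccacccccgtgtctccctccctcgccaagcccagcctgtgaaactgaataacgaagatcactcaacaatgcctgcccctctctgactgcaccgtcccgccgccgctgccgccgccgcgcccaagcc
Fzd7, chr1:59481897-59482146, plus strand: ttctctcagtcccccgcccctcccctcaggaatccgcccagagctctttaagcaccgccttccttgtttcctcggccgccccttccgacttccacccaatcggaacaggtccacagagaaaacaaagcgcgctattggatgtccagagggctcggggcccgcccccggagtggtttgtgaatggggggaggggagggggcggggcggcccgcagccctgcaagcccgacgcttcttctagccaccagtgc
Fzd4, chr7:89404116-89404365, plus strand: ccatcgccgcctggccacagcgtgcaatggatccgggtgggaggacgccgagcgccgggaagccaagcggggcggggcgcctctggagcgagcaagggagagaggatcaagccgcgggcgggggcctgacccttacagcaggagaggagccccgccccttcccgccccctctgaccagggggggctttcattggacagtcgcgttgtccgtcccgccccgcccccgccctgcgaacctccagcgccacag
Dkk1, chr19:30549497-30549746, minus strand: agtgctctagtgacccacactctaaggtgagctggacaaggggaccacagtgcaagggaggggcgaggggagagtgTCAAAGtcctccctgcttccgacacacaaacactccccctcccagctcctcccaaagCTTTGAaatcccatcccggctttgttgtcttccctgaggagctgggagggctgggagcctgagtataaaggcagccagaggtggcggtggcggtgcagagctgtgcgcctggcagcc
The Lgr4 window held GGAATG in 2 places, both read on the opposite strand, starting 178 and 158 bases before the start site. An IKDN TEAD1 peak of 276 bp centred 114 bases before the Lgr4 start site spanned both, and the WT TEAD1 list had no peak over that window. In the Lgr6 window a CAGCTG and a TGGGAA overlap, starting 205 and 201 bases before the start site. The Dkk1 window held CTTTGA in 2 places, at 174 and 117 bases. No motif was found in the Fzd7 and Fzd4 windows, although TEAD1 peaks of both genotypes and a WT Ikaros peak lay over the Fzd7 window, and a WT Ikaros peak over the Fzd4 window.

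Of 40 members, 27 had a RefSeq promoter entry. GGAATG was found at 1 of these 27 (Lgr4) and in 12.6% of all 32851 promoter windows of the same length. CTTTGA, the TCF/LEF motif, was found at 4 (Dkk1, Fzd1, Wnt11 and Wnt5b) against 13.8% of all windows. TGGGAA was found at 4 (Lgr6, Wnt3, Wnt5b and Wnt9a) against 21.6%, CAGCTG at 3 (Fzd10, Lgr6 and Wnt9a) against 13.0%, and TAATTA at 1 (Wnt8b) against 4.84%. CCCNNGGG was found at 8 members against 11.8% of all windows. These matches describe the letters of the windows and no more.

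Most Wnt family genes carried H3K27me3, the mark of Polycomb repression, in both genotypes. Of the 39 members with a start site that could be worked out from the lists, 35 had a H3K27me3 peak within 500 bp of it in WT and 33 in IKDN cells, 89.7% and 84.6%, where all 19507 such genes gave 26.7% and 25.3%. Together with H3K4me3, a mark of promoters open to initiation, H3K27me3 lay at 17 members in WT and 15 in IKDN, against 14.1% and 10.6% of all genes. Among the promoters with both marks were those of Wnt10a, Wnt11, Fzd2, Fzd3, Lgr4, Lgr5 and Lgr6 in both genotypes. H3K4me3 without H3K27me3 was found at Fzd5 and Fzd7 in WT, and at Fzd4, Fzd5, Fzd7, Fzd9 and Dkk3 in IKDN cells. The 3 added genes, the receptors Fzd4 and Fzd9 and the secreted protein Dkk3, kept a H3K4me3 peak and had no H3K27me3 peak at the start site in the IKDN list. The RNA polymerase II (RNAPII) libraries are labelled RpIIS5, read here as the form phosphorylated at serine 5. No other form of the polymerase was mapped. A RNAPII peak lay at the start site of 5 members in WT (Fzd5, Fzd7, Fzd8, Fzd9 and Lgr4) and of 9 in IKDN, where Fzd1, Fzd3, Fzd4 and Dkk3 joined them. These are 12.8% and 23.1% of the members, against 53.0% and 53.9% of all genes. At Fzd1 and at Fzd3 the IKDN RNAPII peak was short, 0.5 kb each. No Wnt ligand gene had a RNAPII peak at its start site in either genotype.

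**Figure D1:**
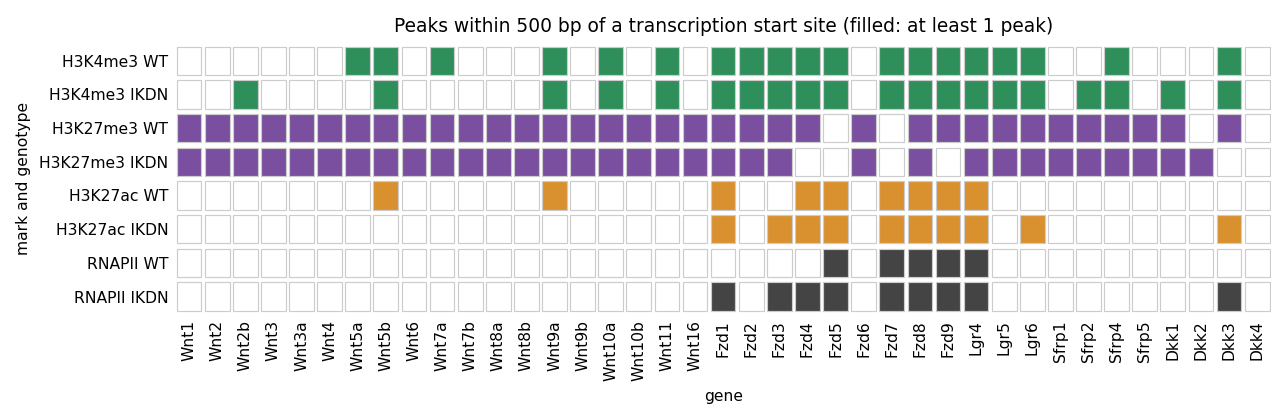
Presence of H3K4me3, H3K27me3, H3K27ac and RNAPII peaks within 500 bp of a start site (rows, 1 WT and 1 IKDN library for each) at 39 Wnt family genes (columns). Filled squares mark at least 1 peak: the H3K27me3 rows are filled at all Wnt ligand and Sfrp genes in both genotypes, and RNAPII squares fall on Fzd genes, Lgr4 and Dkk3.

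H3K27ac marks enhancers and promoters in use. By name, 9 of the 40 members were called higher, where 13.9% of all 20305 names were, and 3 lower, where 10.9% were. The Frizzled and Lgr receptors gave 5 of the 9 (Fzd1, Fzd4, Fzd5, Fzd7 and Lgr6) with none lower, the ligands 2 higher (Wnt10a and Wnt11) and 2 lower (Wnt5b and Wnt9a), and the Dkk genes 2 higher (Dkk1 and Dkk3) and 1 lower (Dkk4). Summed over the members it went from 76.1 kb (WT) to 117 kb (IKDN), a ratio of 1.54, where the ratio over all names was 1.04. The median difference was 0 both over the members and over all names, since 19 members had no H3K27ac peak in either list. These 19 include all 4 Sfrp genes, the ligands Wnt1, Wnt2, Wnt3, Wnt3a, Wnt4, Wnt5a, Wnt6, Wnt7a, Wnt8a and Wnt9b, the receptors Fzd2, Fzd6, Fzd10 and Lgr5, and Dkk2. By length over the gene and its 10 kb flanks, 7 members were higher (12.4% of 21887 coding genes) and 4 lower (8.49%). Fzd4, Fzd7, Lgr6, Wnt10a, Dkk1 and Dkk3 were higher and Wnt5b, Wnt9a and Dkk4 lower by both measures, while Fzd1, Fzd5 and Wnt11 had no call around the gene. Fzd3, with 0 and 1.61 kb, was higher and Lgr5, with 10.2 and 5.19 kb, lower around the gene alone. Of the Fzd3 length, 0.797 kb was named to Fzd3 and 0.818 kb to the neighbour Fbxo16. All of the Lgr5 length lay in peaks named to A930009A15Rik and Zfc3h1.

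**Figure D2:**
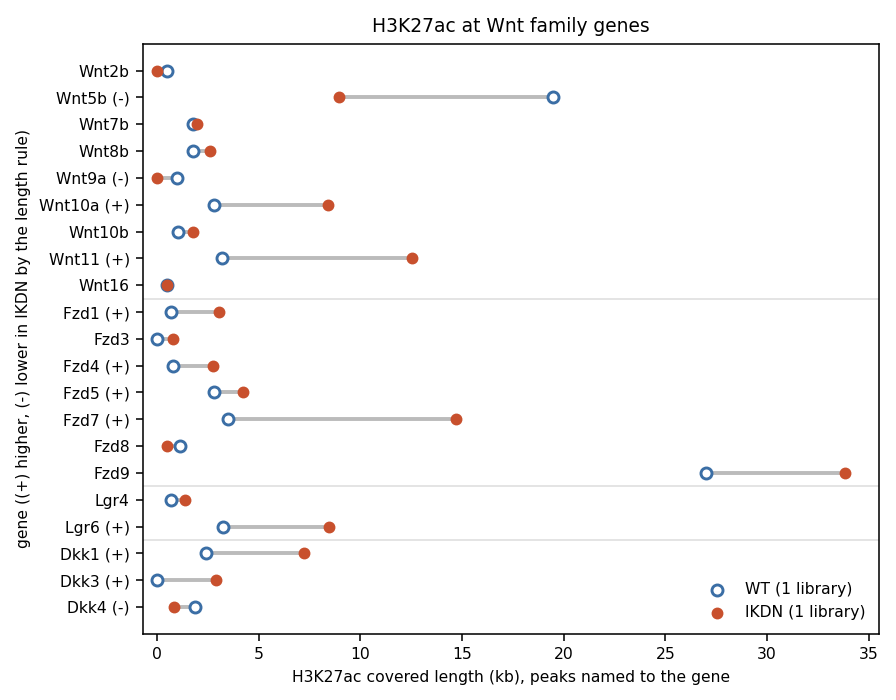
H3K27ac covered length in kb (x axis) at the 21 Wnt family genes with a peak in either list (y axis), WT as open and IKDN as filled circles, 1 library each, without error bars because there are no replicates. By name the longest gain is at Fzd7, from 3.47 to 14.7 kb, and the longest loss at Wnt5b, from 19.5 to 8.97 kb.

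Fzd7, a Frizzled receptor used in stem and progenitor cells, showed the longest gain by name, while around the gene the gains at Lgr6 and Wnt10a were longer. Its H3K27ac went from 3.47 kb (WT) to 14.7 kb (IKDN), 4.24 times as long, and over the gene and its flanks from 3.47 to 8.26 kb. The WT list had a single H3K27ac peak, over the start site, and the IKDN list had that peak and 8 more that reached 105 kb upstream. The best-scored of these 8 covered 3.07 kb at chr1:59429443-59432515, between genes and 51.2 kb upstream of Fzd7, with an authors' score of 131. It held IKDN peaks of TEAD1 (score 75.8), LMO2 (10.2), MED1 (15.1) and RNAPII (33.1), and the WT lists of TEAD1, MED1 and RNAPII had no peak there. LMO2 was mapped in IKDN cells alone. Over the gene, RNAPII went from 1 peak of 1.74 kb at the start site in WT to a peak of 8.01 kb in IKDN, and the RNAPII length named to Fzd7 from 1.74 to 10.5 kb. H3K4me1, a mark of enhancers, rose from 4.45 to 24.5 kb at Fzd7, H3K4me2 from 6.29 to 14.5 kb, and MED1, a Mediator subunit, from 1.41 to 4.63 kb. H3K36me3, laid down over transcribed gene bodies, had 1.83 and 3.19 kb, and H3K4me3 had 4.29 and 3.75 kb. H3K27me3 was near absent at Fzd7, with 3 peaks of 0.5 kb in WT and none in IKDN. EBF1 peaks named to Fzd7 numbered 1 in WT and 7 in IKDN, and PAX5 peaks 3 and 11.

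Lgr6, a receptor of R-spondins that marks epithelial stem cells, exchanged a long H3K27me3 domain for H3K27ac. The gene spans 122 kb on chr1:134983300-135105374, and peaks in its distal part carry the name Ube2t, whose start site is nearer to them. Over the whole gene and its flanks H3K27me3 went from 79.6 kb (WT, 15 peaks) to 2.60 kb (IKDN), where a single peak at the start site was left. H3K27ac went from 3.9 to 26.5 kb over the same stretch. The 3 longest IKDN peaks, of 4.66, 6.15 and 4.99 kb, were centred 84.4, 92.2 and 113 kb into Lgr6. Each of them overlapped a WT H3K27me3 peak, centred 85.6, 90.8 and 117 kb into Lgr6. Named to Lgr6 alone, H3K27ac was 3.26 and 8.47 kb, H3K27me3 57.5 and 2.60 kb, H3K4me1 15.4 and 27.5 kb, H3K4me2 13.1 and 10.9 kb, H3K4me3 1.39 and 0.803 kb, and MED1 0 and 3.16 kb. IKDN TEAD1 peaks lay 84.1 kb (score 140) and 21.6 kb (score 99.2) into Lgr6, and the best-scored LMO2 peak 113 kb into it (score 164). The WT Ikaros list had 12 peaks over Lgr6 and its flanks, the best-scored at 113 kb (score 25.6). RNAPII had no peak over Lgr6 in WT and 6.38 kb in IKDN, in 3 peaks centred 85.2, 92.8 and 113 kb into the gene, and none at the start site. No H3K36me3 peak was named to Lgr6 in either genotype. Over the gene and its flanks H3K36me3 had 2.5 and 4.11 kb, called higher, of which all but an IKDN peak of 0.5 kb belonged to peaks centred past the end of Lgr6 and named to Ube2t.

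**Figure D3:**
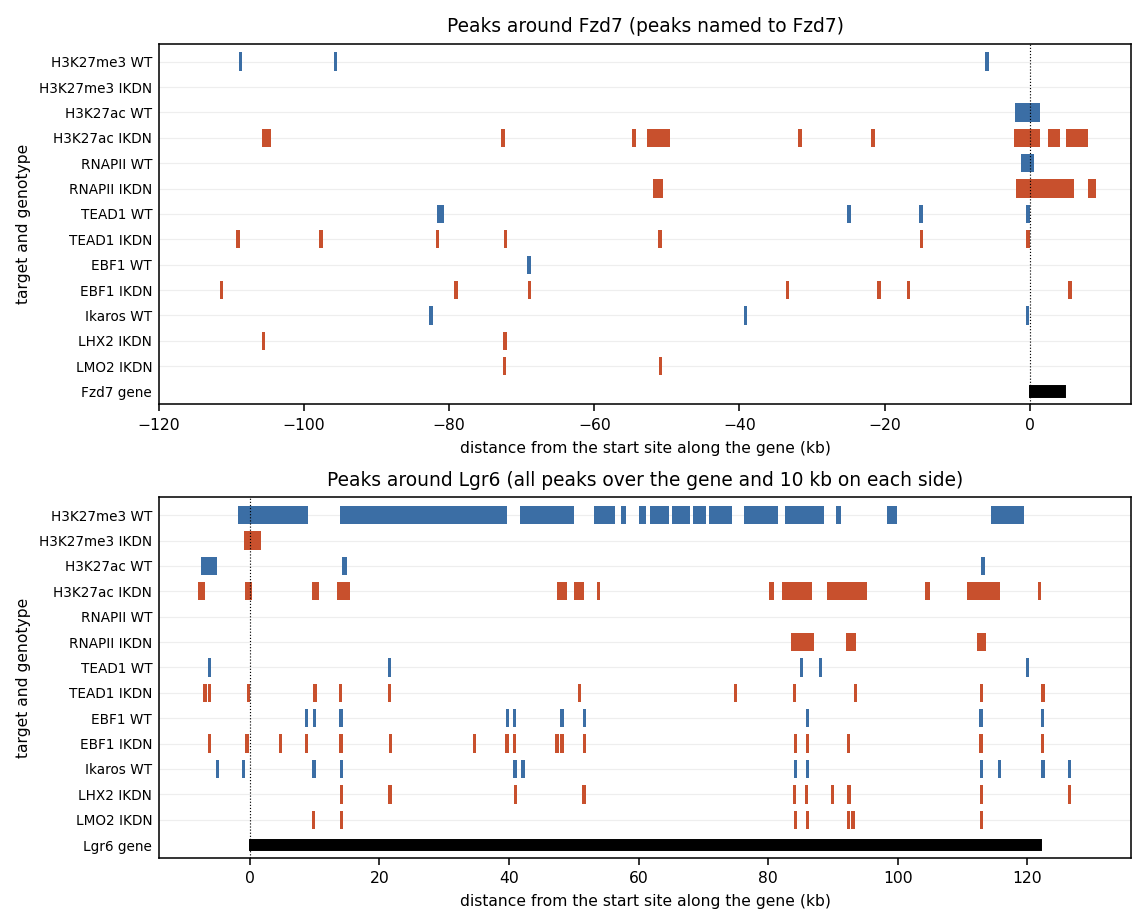
Peaks of 8 targets (rows, WT in blue, IKDN in orange, 1 library each) by distance from the start site in kb (x axis) around Fzd7, using the peaks named to it, and over Lgr6 with 10 kb on each side. The black bar is the gene and peaks are drawn at least 0.5 kb wide: IKDN H3K27ac, RNAPII and TEAD1 peaks lie together 51 kb upstream of Fzd7, and the WT H3K27me3 peaks along Lgr6 have 1 counterpart in IKDN.

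Fzd4, the receptor for norrin and several Wnt ligands, changed at its promoter. H3K27me3 covered 21.4 kb in WT cells, of which 1 peak of 16.7 kb spanned the gene, and had no peak in IKDN. H3K27ac at the Fzd4 start site went from 0.776 to 2.74 kb, 3.53 times as long, in 1 peak in each genotype. RNAPII went from 0 to 1.69 kb, MED1 from 0 to 1.70 kb and H3K36me3 from 0 to 3.29 kb, of which 2.04 kb lay inside the gene and the rest just past its end. H3K4me1 had 2.08 and 4.15 kb, H3K4me2 2.89 and 3.64 kb, and H3K4me3 2.31 and 2.48 kb. About 0.8 kb upstream of the Fzd4 start site lay a WT Ikaros peak (score 10.6) and IKDN peaks of LHX2 (7.11), LMO2 (9.35), EBF1 (5.81) and TEAD1 (18.8), and neither EBF1 nor TEAD1 had a WT peak named to Fzd4. The start region of Fzd4 is shared with the neighbouring gene Tmem135, so peaks there cannot be given to 1 of them.

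Dkk3, a secreted Dickkopf relative, had no H3K27ac peak in WT and 2.90 kb in IKDN, of which 1.90 kb lay just inside the gene. H3K27me3 covered 10.4 kb in WT, of which 7.28 kb lay at the start site, and had no peak in IKDN. At 1.3 kb inside Dkk3 there was a WT Ikaros peak (score 11.1), EBF1 peaks in WT (57.0) and IKDN (193.1), and a TEAD1 peak in IKDN (36.8). RNAPII named to Dkk3 went from 10.03 to 7.02 kb, but all of the WT length lay in the neighbour Usp47, while the IKDN list had a peak of 1.30 kb just inside Dkk3. H3K36me3 had 21.2 and 37.5 kb. In WT both H3K36me3 peaks lay in Usp47, and in IKDN 7 further peaks lay in or just beyond Dkk3. H3K4me1 had 2.74 and 7.69 kb, H3K4me2 2.12 and 4.16 kb, and H3K4me3 1.74 and 1.70 kb.

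Dkk1, an inhibitor of the Lrp5 and Lrp6 co-receptors, went from 2.41 to 7.23 kb of H3K27ac, most of it far upstream within Prkg1. The best-scored of these peaks lay 114 kb upstream of Dkk1 (IKDN score 114.2) and was shared by both genotypes. A WT Ikaros peak (score 40.3), TEAD1 peaks in WT (6.61) and IKDN (81.8), and IKDN peaks of LHX2 (45.2) and LMO2 (28.0) lay at this place. The H3K27me3 call at Dkk1 turned with the measure. Named to Dkk1 it went from 5.45 to 20.5 kb, all but 0.5 kb of the latter in Prkg1 and at least 147 kb away. Around the gene itself it went the other way, from 16.6 to 1.33 kb, since the WT domain over Dkk1 is named to the pseudogene Ppp1r2-ps3. H3K4me1 at Dkk1 had 5.86 and 11.1 kb, H3K4me2 5.11 and 6.97 kb, RNAPII 0 and 0.668 kb, and MED1 0 and 1.05 kb.

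Among the ligands, Wnt10a, which signals through beta-catenin, gained H3K27ac inside a Polycomb domain. Its length went from 2.80 to 8.39 kb, with 1 IKDN peak of 4.99 kb at chr1:74799472-74804465, in the last part of the gene. In WT 1 H3K27me3 peak of 37.0 kb, chr1:74777283-74814304, ran across Wnt6 and Wnt10a. In IKDN it was split into peaks ending at 74796668 and starting again at 74803914, with most of the H3K27ac peak in the gap. H3K27me3 at Wnt10a, 38.7 and 32 kb, had no call. RNAPII at Wnt10a went from 0.763 to 6.46 kb and MED1 from 1.36 to 7.33 kb, while H3K4me1 had 14.8 and 17 kb, H3K4me2 14.3 and 15.3 kb and H3K4me3 6.43 and 5.56 kb. A LMO2 peak with a score of 103.7 lay 8.7 kb into Wnt10a, where the WT Ikaros list had a peak with a score of 9.72.

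Wnt11, a ligand of the beta-catenin-independent branch, went from 3.20 to 12.5 kb of H3K27ac, but the added peaks lay in Uvrag, the gene downstream of it. The longest covered 4.78 kb and was centred 60.3 kb from the Wnt11 start site. H3K27me3 at Wnt11 went from 35.4 to 22.3 kb, with a domain over the start site in both genotypes, 14.2 and 15.4 kb long. Part of the other Wnt11 lengths also lay in Uvrag. RNAPII was 56.1 and 32.6 kb, H3K36me3 40.4 and 81 kb, H3K4me1 8.97 and 16.5 kb, H3K4me2 10.7 and 14.2 kb, H3K4me3 4.20 and 2.83 kb, and MED1 0 and 2.44 kb. Around the gene, Wnt11 had no call for H3K27ac, H3K27me3 or RNAPII.

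Wnt5b, another ligand of that branch, showed the longest H3K27ac loss by both measures, by name from 19.5 to 8.97 kb. The losses lay in Erc1, upstream, where the longest WT peak covered 7.96 kb and was centred 75.7 kb away, and also at the Wnt5b start site, where a WT peak of 0.887 kb had no IKDN counterpart. Over the Wnt5b gene and its flanks, which do not reach the peaks in Erc1 but hold others named to Fbxl14, the lengths were 20.3 and 8.41 kb. Most of this loss lay in the peaks named to Fbxl14, with 15.4 and 6.77 kb, and those named to Wnt5b there had 4.93 and 1.145 kb. No other mark at Wnt5b was called lower. RNAPII had 1.32 and 7.66 kb, MED1 0.651 and 4.22 kb, H3K36me3 8.97 and 23.8 kb and H3K4me3 2.86 and 5.19 kb, all called higher by name, but around the gene only MED1 kept the call, with 2.33 and 5.75 kb. H3K4me1 had 28.6 and 35.6 kb and H3K27me3 13.4 and 20.1 kb, both without a call. The WT Ikaros list had 10 peaks named to Wnt5b, of which those 77.4 kb, 73.8 kb and 91.4 kb upstream scored best. The smaller losses were at Wnt9a, with 1 kb in 2 short WT peaks at the start of the gene and none in IKDN, and at Dkk4, with 1.85 and 0.845 kb in 1 peak 9.3 kb upstream.

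The remaining H3K27ac calls rested on distant peaks. Fzd1, a receptor of canonical ligands, went from 0.685 to 3.06 kb, of which 2.43 kb lay 246 kb away in Cdk14. At the Fzd1 start site the peak covered 0.685 and 0.625 kb. Fzd5 had 2.80 and 4.24 kb, with 2 added IKDN peaks of 0.5 kb in Plekhm3. By name Fzd9 had the longest H3K27ac of all members in both genotypes, 27 and 33.8 kb without a call, and part of it lay in the neighbour Baz1b. Around the gene Fzd9 had 14 and 15.8 kb, less than Wnt5b in WT and less than Lgr6 in IKDN.

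Many IKDN H3K27ac peaks at the members had no WT counterpart. Of 68 IKDN peaks named to members, 27 overlapped a WT peak, 39.7% with an exact 95% Clopper-Pearson interval from 28.0 to 52.3%, where 60.7% of all IKDN peaks did. Of 42 WT peaks, 28 were shared, 66.7% (50.5 to 80.4%), where the share over all WT peaks was 69.2%. These intervals cover counting error alone and take the peaks as independent. The 68 IKDN peaks lay at 19 members, with several at the same gene, as at Fzd7 and Lgr6, so the intervals are too narrow for a statement about the family. Of the 41 peaks found in IKDN alone, 9, at Dkk1, Dkk3, Fzd3, Lgr6, Wnt10a and Wnt5b, lay in H3K27me3 peaks of WT cells, 22.0% (10.6 to 37.6%), where 8.90% of all IKDN-only peaks did. This was not particular to the peaks found in IKDN alone: 11 of 27 shared peaks (40.7%, against 8.56%) and 4 of 14 found in WT alone (28.6%, against 6.97%) also lay in WT H3K27me3. An IKDN TEAD1 peak lay in 11 of the 41, 26.8%, as in 26.9% of all such peaks. IKDN EBF1 lay in 12 (29.3%, against 18.3%), LHX2 in 8 (19.5%, against 17.9%), LMO2 in 8 (19.5%, against 13.3%) and WT Ikaros in 5 (12.2%, against 11.5%).

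H3K27me3 moved in both directions over the family. By names 17 of 40 members were higher in IKDN, where 17.6% of all names were, and 9 lower, where 20.8% were. These shares count names with little or no H3K27me3. At least 1000 bp in either list was found at 38 members and at 11084 of all names. Of those 11084 names 32.2% were higher and 38.1% lower. The summed length went from 660 to 703 kb, a ratio of 1.07 where all names gave 1.15, and the median difference was 1975 bp where that over all names was 0. Around the genes 11 members were higher (15.0% of coding genes) and 8 lower (20.6%), and the sum went the other way, from 680 to 604 kb, a ratio of 0.889 where all coding genes gave 1.08. Lgr6 alone, with 79.6 and 2.60 kb, fell by more than the whole sum did. The windows of neighbouring Wnt genes overlap, so a domain shared by such genes enters the sum at each of them. Higher by both measures were the ligands Wnt3, Wnt4, Wnt5a, Wnt9b and Wnt16, the receptors Fzd1, Fzd6 and Lgr5, and the antagonists Sfrp2, Sfrp5 and Dkk2. Lower by both were the receptors Fzd3, Fzd4, Fzd9 and Lgr6, and Dkk3. No Wnt ligand gene was lower by both measures.

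After Lgr6, the longest loss was at Fzd3, a receptor needed for axon guidance and planar polarity. H3K27me3 named to Fzd3 went from 62.8 kb, in 13 peaks along the whole gene, to 12 kb in 7 peaks. At the start site the domain went from 15.7 to 6.25 kb. Fzd3 had no H3K27ac in WT and 0.797 kb in IKDN, RNAPII 0 and 0.5 kb, and MED1 0 and 1.09 kb. Fzd9 went from 3.42 kb to 0, with a WT peak of 1.92 kb at the gene.

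Several gains were domains that were longer around the start site. Wnt3, a canonical ligand, had 21.6 and 48.9 kb, and its start domain, which reaches into Wnt9b, 10.5 and 15.1 kb. Fzd6 had 5.27 and 21.6 kb, with start domains of 2.98 and 10.2 kb. Wnt5a, a ligand that stromal cells secrete, had a single domain of 2.08 and 8.53 kb. Wnt16 had 4.24 and 16.4 kb, Wnt4 had 5.16 and 12.7 kb, and Wnt9b had 10.2 and 15.5 kb. Fzd1 had 2.93 and 14.8 kb, of which 2.93 and 8.15 kb were at its start site, and Lgr5, the intestinal stem cell receptor of R-spondins, had 9.93 and 18 kb. Sfrp2 had 25.7 and 39.5 kb, Sfrp5 10.3 and 18.2 kb, and Dkk2 0.5 and 1.76 kb. By name, only Fzd1 among these 11 genes had a H3K27ac call. Around the gene only Lgr5 did, in peaks that carry the names of other genes.

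**Figure D4:**
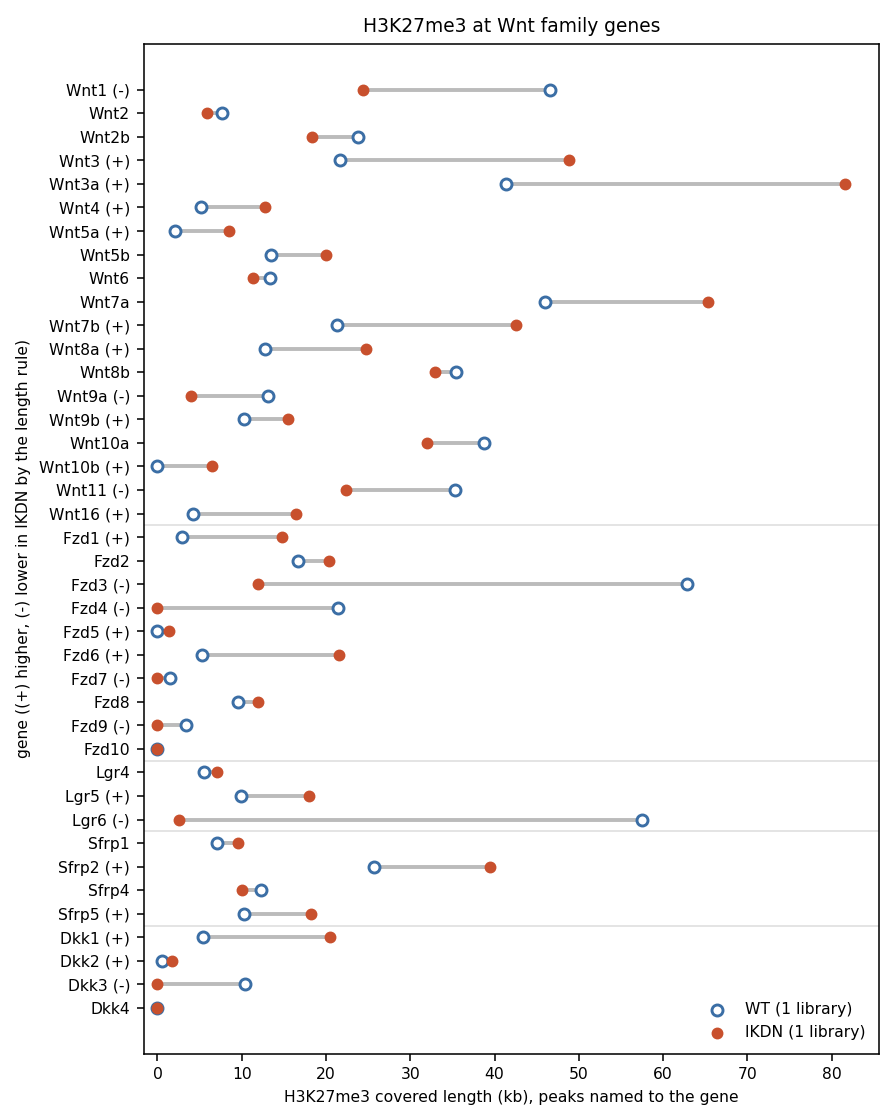
H3K27me3 covered length in kb (x axis) at all 40 Wnt family genes (y axis, by family), WT as open and IKDN as filled circles, 1 library each, without error bars because there are no replicates. Lgr6, Fzd3 and Fzd4 go from 57.5, 62.8 and 21.4 kb to 2.60, 12 and 0 kb, while Wnt3a and Wnt3 go from 41.4 and 21.6 kb to 81.6 and 48.9 kb.

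Several calls by name came from domains that span neighbouring Wnt genes. On chromosome 15 the WT list had 1 H3K27me3 peak of 46.6 kb over Wnt1 and Wnt10b, named to Wnt1, and the IKDN list had 24.4 kb at Wnt1 and 6.43 kb at Wnt10b. By name Wnt1 was therefore lower and Wnt10b, at 0 in WT, higher. Around the genes Wnt1 had 24 and 20.3 kb, without a call, and Wnt10b 24.5 and 8.70 kb, lower. On chromosome 11 the IKDN list had 1 peak of 81.6 kb over Wnt3a and Wnt9a, named to Wnt3a, where WT had 41.4 kb at Wnt3a and 13.1 kb at Wnt9a. By name Wnt3a was higher and Wnt9a lower, with 4.03 kb left in IKDN. Around the genes Wnt3a had 55.4 and 61.5 kb and Wnt9a 19.9 and 28 kb, both without a call. Wnt7b (21.3 and 42.5 kb by name) and Wnt8a (12.7 and 24.7 kb) were higher by name and had 21 and 28.2 kb, and 12.7 and 19 kb, around the gene, without a call. Fzd5, with 0 and 1.41 kb by name, Fzd7 and Wnt11 also had no call around the gene. Sfrp4 had 12.2 and 10.01 kb by name, without a call, and 19 and 8.67 kb around the gene, lower, where a WT domain of 18 kb is named to Epdr1.

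Opposite calls of the 2 marks met at 5 members by name: Wnt11, Fzd4, Fzd7, Lgr6 and Dkk3 were higher for H3K27ac and lower for H3K27me3, a pair of calls found at 4.72% of all names. Around the gene the pair was found at 5 members, Fzd3, Fzd4, Lgr6, Dkk1 and Dkk3, and at 4.98% of coding genes, and thus by both measures at Fzd4, Lgr6 and Dkk3. At Fzd3 the H3K27ac call was reached only together with a peak named to Fbxo16. The reverse pair, H3K27ac lower and H3K27me3 higher, was found at no member by name, where 2.32% of all names had it, and around the gene at Lgr5 (1.97% of coding genes). The H3K27ac peaks around Lgr5 were all named to other genes. The largest class was H3K27me3 higher without a H3K27ac call, with 14 members, where 13.1% of names were. That share counts names that carry no H3K27me3: 7806 of all 20305 names had no such peak in either list, and 2 of the 40 members.

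H3K4me1 was called higher at 13 members (15.3% of all names) and lower at 3 (14.4%). The longest gains by name were at Fzd7, Lgr6 and Wnt11, given above, and the losses were 7.27 and 3.72 kb at Fzd5, 3.50 and 1.69 kb at Dkk4 and 3.05 and 1.29 kb at Wnt9a. Tag numbers inferred from the steps between scores were 21.1 M (WT) and 30.0 M (IKDN) for H3K4me1, and 34.7 M and 24.2 M for RNAPII. The part of depth in these calls was not tested. H3K4me2 was higher at 7 (10.4%) and lower at 2 (9.03%), namely Fzd5 with 7.40 and 4.84 kb and Wnt8b with 4.32 and 2.64 kb. MED1 was higher at 12 (25.6%) and lower at none (1.63%), and the WT MED1 list is the shorter one, with 12070 peaks against 24219. RNAPII was higher at 6 (18%) and lower at 2 (16.3%). Besides Fzd7, Wnt5b and Wnt10a these were Fzd4, Wnt2b and Wnt16, and the 2 lower ones were Wnt11 and Dkk4, the latter with 1.57 kb and 0. For H3K36me3 10 members were called higher (17.2%) and none lower (5.81%), but 87.5% of the WT and 80.0% of the IKDN length named to members lay in other coding genes. The longest gains were at Wnt11 and Dkk3, given above, and at Wnt2b, with 1.15 and 25.3 kb, of which 20.03 kb of the latter lay in St7l. For RNAPII the share in other coding genes was 59.9% in WT and 49.1% in IKDN, for H3K27ac 33.6% and 33.5%, and for H3K27me3 8.37% and 9.29%.

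Around the genes part of these calls was lost. H3K4me1 kept 10 of the 13 higher and 2 of the 3 lower calls, without Fzd5, and in all had 12 members higher (12.8% of coding genes) and 2 lower (13.8%). H3K4me2 kept all 7 higher calls and neither lower one, with 8 higher (8.07%) and 0 lower (6.38%) in all. MED1 kept 9 of 12, with 11 higher (32.5%) and none lower (0.717%). H3K36me3 kept 7 of 10, without Wnt5b, Wnt11 and Fzd8, with 10 higher (14.8%) and none lower (2.39%). RNAPII kept 5 of 6 higher calls, without Wnt5b, and Dkk4 of the lower ones, with 8 higher (17.2%) and 3 lower (14.5%), namely Wnt4, Lgr5 and Dkk4. The RNAPII peaks around Lgr5 were all named to Zfc3h1 and A930009A15Rik.

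H3K4me3 had fewer calls, with 1 member higher (3.1% of all names), Wnt5b, and 5 lower (6.88%). The losses were 2.85 and 0.5 kb at Fzd1, 4.37 and 2.40 kb at Fzd2, 1.88 and 0 kb at Wnt5a, 2.53 and 0.786 kb at Wnt9a and 3.02 and 1.34 kb at Fzd8. Around the genes these 5, Lgr6 and Wnt11 were lower (5.57% of coding genes) and Fzd3 was higher (2.17%), while Wnt5b had no call. The Fzd3 call includes an IKDN peak of 0.842 kb named to Fbxo16, and the peaks named to Fzd3 had 1.214 and 1.567 kb. With the top-scored 50% of each list 2 members were higher and 2 lower, by number of peaks 1 and 0, and by summed score 6 and 6, without an excess of lower calls. Markers of stromal fibroblasts also had lower H3K4me3. Of 14 such genes none was higher and 8 were lower for H3K4me3, with summed lengths of 30.7 (WT) and 5.48 kb (IKDN), while 7 were higher and 3 lower for H3K27me3, with 153 and 490 kb, of which Cxcl12 alone had 21.1 and 250.4 kb. Their H3K27ac was 23.0 and 33.7 kb, with 3 higher and 3 lower, and their H3K36me3 10.2 and 22.4 kb, with 2 higher and none lower. Col3a1, Lepr, Postn, Lum and Dcn had no H3K4me3 peak in either list. The antibody labels of the 2 H3K4me3 libraries also differ, and the scores give 29.6 M tags for the WT and 10.7 M for the IKDN library if they are scaled as HOMER does by default, which is an inference. The inferred steps fitted 100% of the distinct WT scores up to 10 but 75.0% of the IKDN ones, so the IKDN number is the less certain. The part of stromal cells, antibody and depth in the result was not tested.

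The 10 B lineage markers had 176 (WT) and 105 kb (IKDN) of H3K27ac, with peaks at 9 and 7 genes, among them Pax5 and Ebf1 in both, and 5 of them were lower. This difference moved with genotype as well, and its part in the results at the members was not tested. Over all lists the number of peaks ran from 2783 for IKDN Aiolos to 86562 for IKDN PAX5. The lists as used here hold no peaks on chromosomes 3 to 9 and X and the end of chromosome 2 for WT E2A, on chromosome 2 for WT ETS1, and on most of chromosome 9 and X for IKDN PAX5. Factor lists were compared on chromosomes complete in both, which left 23 members for E2A and 39 for ETS1.

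More factor peaks were named to the members in IKDN cells for EBF1, PAX5, IRF4, ETS1 and TEAD1, and fewer for E2A and Aiolos. The peaks of a factor list have 1 fixed width that differs between genotypes, so numbers are given in place of lengths. EBF1, a B lineage factor, had 51 peaks at members in WT and 91 in IKDN, a ratio of 1.78, where all names gave 1.29. PAX5 had 161 and 224, a ratio of 1.39 against 1.16. IRF4 had 25 and 55, a ratio of 2.20 against 1.64, and ETS1 had 27 and 67, a ratio of 2.48 against 1.44. TEAD1, the DNA-binding partner of YAP, had 92 and 102, a ratio of 1.11 against 1.45. TEAD1 peaks moved between members: Wnt11 went from 5 to 12, Lgr6 from 2 to 7 and Fzd9 from 2 to 6, while Fzd8 went from 13 to 4 and Fzd1 from 11 to 7. E2A had 31 peaks in WT and 24 in IKDN, a ratio of 0.774 against 0.552 over all names, and Aiolos, an Ikaros relative, had 7 and 4, a ratio of 0.571 against 0.770. The antibody labels of the E2A libraries and of the ETS1 libraries differ between the genotypes. The part of the antibody in the E2A and ETS1 ratios was not tested.

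The WT Ikaros list had 82 peaks at 23 members, 57.5% of the members, where 63.7% of all names had one. The most were at Wnt11 with 13, Wnt5b with 10 and Fzd5 with 8. In IKDN cells LHX2 had 53 peaks at 20 members (50%, against 44.5% of all names) and LMO2 30 peaks at 16 (40.0%, against 31.5%). Wnt5b had 10 of the LHX2 and 5 of the LMO2 peaks, and no factor of these 3 had a peak at Wnt2, Wnt3, Wnt3a, Wnt4, Wnt5a, Wnt7a, Wnt9b, Wnt16, Fzd6, Fzd8, Fzd10, Sfrp5 or Dkk2.

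**Figure D5:**
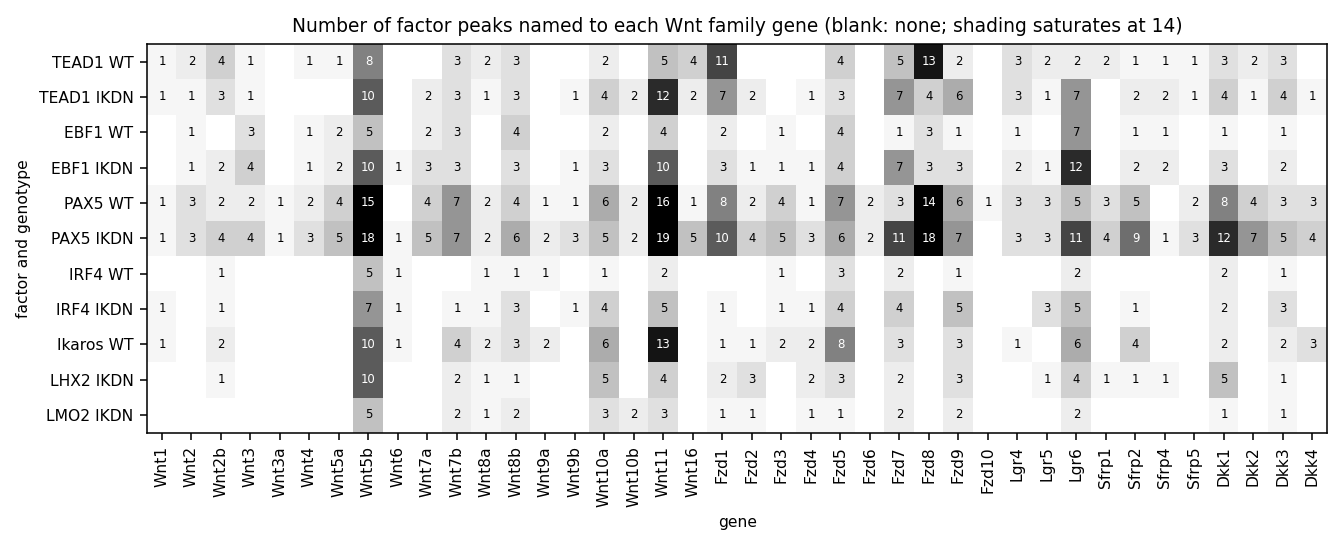
Number of peaks (figures in the cells, darker for more) named to each of 40 Wnt family genes (columns) in the TEAD1, EBF1, PAX5 and IRF4 lists of both genotypes and the Ikaros, LHX2 and LMO2 lists of 1 genotype (rows), 1 library each. Wnt11 has 13 and Wnt5b 10 Ikaros peaks, and Fzd8 has 13 TEAD1 peaks in WT and 4 in IKDN.

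Other genes of the pathway were taken from a list of 58 genes for co-receptors, R-spondins, secretion factors, inhibitors, transducers, nuclear factors and planar polarity proteins. Their calls and lengths are by name alone and were not checked around the gene, so part of a length can lie in neighbouring genes. For H3K27ac 16 of the 58 were higher and 10 lower, beside 13.9% and 10.9% of all names. For H3K27me3 17 were higher and 16 lower, beside 17.6% and 20.8%. The longest H3K27ac gains were at Daam1, a formin that acts downstream of Dishevelled, with 14.2 and 44.2 kb, at the Wnt co-receptor Ryk with 0 and 12.1 kb, and at Bcl9l, a beta-catenin cofactor, with 17.6 and 28.8 kb. The longest losses were at the planar cadherin Celsr1 with 41.9 and 18.7 kb, at Apc, a scaffold of the beta-catenin destruction complex, with 11.2 and 0.637 kb, and at the nuclear effector Tcf7 with 13.3 and 6.64 kb. H3K27me3 was longer in IKDN at the corepressor Tle4 with 60.4 and 126 kb, at the Wnt target Sp5 with 55.6 and 111 kb, and at Axin2, a feedback inhibitor, with 7.21 and 54.1 kb. Daam1 was higher for this mark too, with 7.73 and 36.3 kb of H3K27me3 beside its H3K27ac gain. H3K27me3 was shorter at the corepressor Tle3 with 39.0 and 11.4 kb, at Pygo1 with 22.0 and 8.71 kb, and at Ryk with 9.23 kb and 0. Of the 6 co-receptor and other receptor genes, 4 were called lower and 1 higher for H3K27me3, beside the same shares of all names, and 4 were called higher for H3K36me3, beside 17.2%.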

How the data were processed

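ChIP-seq peak lists of 33 libraries were used as deposited, 16 WT and 17 IKDN, and the 2 input libraries have no list and were not used. Per the file headers, each list is HOMER peak annotation output with a position, a peak score, a distance to the nearest start site and a gene name. The score is the authors' deposited value, and its scale is not given in the sources used here, so scores ranked peaks within a list and were not compared between lists. HOMER, STAR, BWA and bcl2fastq (version 1.8.3), with mm10 and mm9 as builds, are listed in the submitters' processing notes without roles, and 99.9% of 25747 start sites worked out from the lists lay within 1000 bp of a RefSeq GRCm38 gene, so coordinates were read as mm10. No file gives the depth, and tag numbers were inferred from the steps between scores.

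The covered length of a gene is the merged length of the peaks named to it. Genotypes were compared by the thresholds given in the report, with 1 library per genotype and target, so there was no test. Factor lists were compared on chromosomes complete in both lists, and a list was taken as incomplete where its peaks stop over 10 Mb before the chromosome end or are missing, a rule chosen after seeing the data. Shares have exact 95% Clopper-Pearson intervals. Python 3.11.15, pandas 2.3.3, numpy 2.4.6 and scipy 1.17.1 were used.

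The members, the gene lists and the rules were chosen with earlier results of these data known. Full values were to be given for members called in H3K27ac or H3K27me3, with up to 3 gains and 3 losses of the other marks. They are given for the genes described at length, and members whose calls rest on H3K27me3 or on short or distant peaks are given for the marks that were called. Sequences of factor peaks were planned, but no genome was used here, so RefSeq promoters are shown.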

Additional observations from a re-analysis of the deposited data

How the results depend on the processing

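Each count of members was recomputed with 7 other settings, and the shares with 3. Of 118 values, 87 stayed within 1.5 times the count or within the interval of the share, and 31 did not. With a threshold of 2000 bp and 2 times, H3K27ac had 1 member lower, H3K27me3 8 higher, H3K4me1 6 higher and 0 lower, H3K4me2 3 higher and 0 lower, H3K4me3 0 higher and 1 lower, H3K36me3 5 higher, RNAPII 0 lower and MED1 6 higher. With numbers of peaks, H3K27me3 had 9 higher, H3K4me1 1 lower, H3K4me2 1 lower, H3K4me3 0 lower, H3K36me3 6 higher and 2 lower, and MED1 7 higher. H3K27me3 then had 11 members lower, more than it had higher. Around the gene and 10 kb on each side, H3K27me3 had 11 higher and H3K4me2 0 lower. With summed scores, H3K4me2 had 4 lower, H3K4me3 6 higher and RNAPII 4 lower. With the top-scored 50% of each list, H3K4me2 had 1 lower and H3K4me3 2 higher and 2 lower. With peaks within 50 kb of a start site, H3K4me2 had 1, H3K36me3 1 and RNAPII 1 lower. Where 50% of both peaks had to overlap, 19.1% of IKDN and 31.0% of WT H3K27ac peaks were shared. H3K27ac had more members higher than lower under all 7 settings. It was also higher more often than lower over all names (13.9% and 10.9%) and around all coding genes (12.4% and 8.49%). Such shares were computed for no other setting, so this excess was not shown to be particular to the members. No paired analysis was possible because each genotype and target has 1 library. With 1 library per genotype and target, genotype and library cannot be told apart, and the depth of the lists is known by inference alone.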
